A study of Homo sapiens with 16 samples.

Results

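Integrins and the proteins that couple them to the actin cytoskeleton were examined for change in H3K27ac, a histone acetylation found at active promoters and enhancers. The genes were a list of 40 symbols, named for their role in adhesion with earlier results of these data known, with 18 integrin subunit genes and 22 genes of adaptor and signalling proteins of focal adhesions (called adaptors below), out of 20046 protein-coding genes in the annotation. LX-2 cells, one established line of human hepatic stellate cells, received 50 µM OSMI-1, an inhibitor of O-GlcNAc transferase (OGTi), for 24 h, or were controls not given it. There were 4 biological replicates of H3K27ac ChIP-seq in each arm, and all cells shared the same line and medium. The data are the authors' 2 region lists, 3507 regions with less H3K27ac under OGTi (lost) and 3623 with more (gained), as positions in hg38. They give no signal, fold change, p-value or read depth for any region, so that sizes of change and replicate spread are unknown, no test was run, and the identity of the cells could not be checked against marker genes.

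Integrins are receptors for the extracellular matrix, each made of one alpha and one beta subunit. Talins and kindlins bind the beta tail and switch the receptor to its active state, and paxillin, focal adhesion kinase, the Cas proteins, tensins and the ILK-PINCH-parvin complex then assemble on it and connect it to actin. In stellate cells and other myofibroblasts, these contacts sense the stiffness of the matrix and transmit contractile force, and some integrins with an alphaV chain release latent TGF-beta.

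Regions in gene bodies were counted first. A region was placed in a gene when its centre lay between the ends of the gene model. Of the 40 genes, 15 held at least 1 lost region (37.5%), where 6.05% of the 20006 other protein-coding genes did. At least 1 gained region was held by 12 genes (30%), against 9.43% of the others. Lost regions only were found in 9 genes (5.04% of the others), gained regions only in 6 (8.42% of the others) and both kinds in 6 (1.01% of the others). In total, 28 lost and 30 gained regions lay in these gene bodies, and no region was counted for more than 1 of the genes.

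These genes are long, which raises such counts. Their median length was 93.0 kb, compared with 27.4 kb for other protein-coding genes. Within length classes, 6 of 18 genes between 20 and 100 kb held a lost region (5.99% of other genes in that class) and 4 a gained one (10.2%). Among 19 genes over 100 kb, 8 held a lost region (15.8% of other genes) and 8 a gained one (20.3%). Only 3 genes were under 20 kb, of which TNS2 held a lost region (1.86% of other genes) and none a gained one (3.96%). Per 1000 kb of gene body, there were 5.01 lost and 5.37 gained regions, against 1.43 and 1.95 in the other genes. The other genes include those without any H3K27ac in LX-2 cells. Since unchanged regions were not used here, a higher share of changing regions cannot be told apart from a higher share of acetylated genes.

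Adaptors held lost regions more often than integrins in their gene bodies, whereas gained regions were held at a like rate. Lost regions lay in 11 of 22 adaptors (50.0%) and 4 of 18 integrins (22.2%). Gained regions lay in 7 adaptors (31.8%) and 5 integrins (27.8%). The density of lost regions was 5.95 per 1000 kb in adaptors and 3.17 in integrins, and that of gained regions 5.95 and 4.23. Adaptor genes were also longer, with a median of 124 kb against 88.0 kb. Between 20 and 100 kb, 4 of 9 adaptors and 2 of 9 integrins held a lost region. Over 100 kb, the counts were 6 of 11 and 2 of 8. These differences between the lists were not tested, because genes of a chosen list are not replicates.

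**Figure D1:**
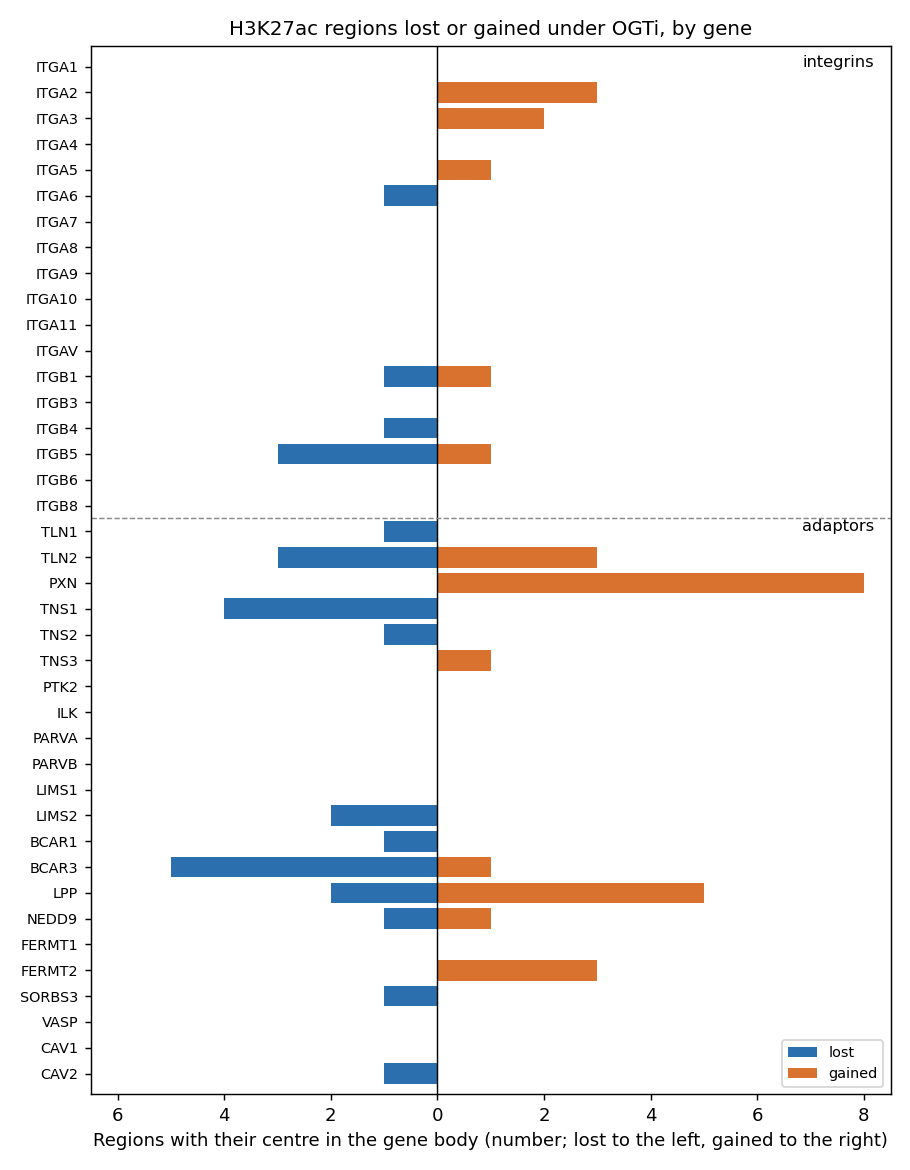
Number of lost (blue, left of 0) and gained (orange, right of 0) H3K27ac regions with their centre in the body of each of the 40 genes, with integrins above the dashed line and adaptors below it. PXN had the most gained regions (8) and BCAR3 the most lost ones (5), and 19 genes had neither.

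Change at the 5′ end of the gene was rarer. A lost region lay within 2500 bp of the 5′ end of ITGA5, ITGB1, ITGB4 and TNS2 (4 of 40 genes, 10.0%, with 2.00% of other protein-coding genes). A gained region lay there in ITGA3 and PXN (2 genes, 5.0%, with 6.39% of the others). Thus 3 of the 4 genes with loss were integrins. The result depended on which start was used. In 8 of the 40 genes (2 integrins and 6 adaptors), the Ensembl canonical transcript starts more than 10 kb inside the gene model. At canonical starts, loss was found in ITGA5, ITGB4, TNS2, LIMS2, BCAR1 and SORBS3 (6 genes, 15.0%, with 2.03% of others) and gain again in ITGA3 and PXN (5.0%, with 6.63% of others). Of these 6 genes with loss, 4 were adaptors. With the starts of all annotated transcripts, 10 genes had a lost region (3.39% of others) and 8 a gained one (8.18% of others).

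**Figure D2:**
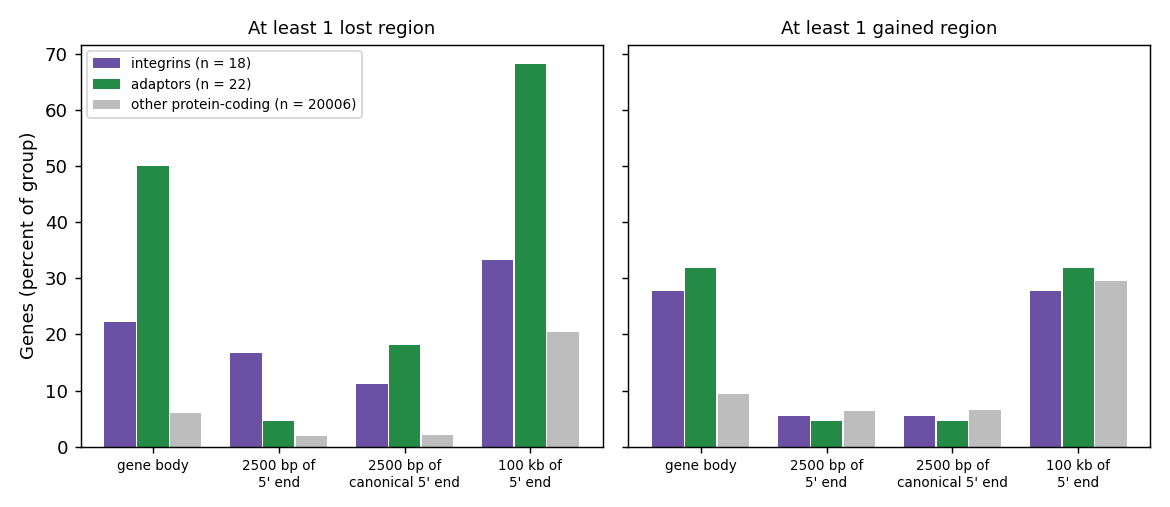
Share of integrins, adaptors and other protein-coding genes (percent of each group) with at least 1 lost region (left) or gained region (right) in the gene body, within 2500 bp of the 5′ end of the gene model, within 2500 bp of the canonical 5′ end, and within 100 kb of the 5′ end. The adaptors stand highest for loss in gene bodies (50.0%) and within 100 kb (68.2%), while for gain the 3 groups lie between 27.8% and 31.8% in the widest window.

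Stretches of the regions at these 5′ ends are shown so that the letters behind the motif counts given further down can be seen. Each was read from hg38 on the plus strand, outside annotated exons, over motif matches with at most 30 flanking bases on each side. Capitals mark matches to the TEAD words ACATTCCA, ACATTCCT, GCATTCCA and GCATTCCT or to the AP-1 word TGANTCA, on either strand. The lost region of ITGA5 (stretch shown, chr12:54421236-54421302) held 1 AP-1 match. That of ITGB1 (stretch shown, chr10:33005458-33005524) held 3, of which 1 is shown, and that of TNS2 (stretch shown, chr12:53048516-53048583) held 1 TEAD match. The gained regions of ITGA3 (stretch shown, chr17:50057289-50057356) and PXN (stretch shown, chr12:120264472-120264539) each held a TEAD match.
ITGA5: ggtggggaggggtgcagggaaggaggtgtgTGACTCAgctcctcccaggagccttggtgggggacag
ITGB1: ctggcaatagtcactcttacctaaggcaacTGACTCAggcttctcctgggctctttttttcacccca
TNS2: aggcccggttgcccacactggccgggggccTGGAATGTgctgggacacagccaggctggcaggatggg
ITGA3: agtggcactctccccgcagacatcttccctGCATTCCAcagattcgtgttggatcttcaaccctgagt
PXN: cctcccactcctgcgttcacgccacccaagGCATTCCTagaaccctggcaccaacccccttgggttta

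Of the 3 AP-1 matches in the lost region of ITGB1, 2 lay in annotated exons and are not shown. In the lost region of ITGB4, a TEAD match (75721375 to 75721382, minus strand) and an AP-1 match (75721391 to 75721397) lay side by side inside an annotated exon on chromosome 17.

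Among the alpha subunits, the collagen receptors held listed regions in the gene body in 1 gene of 4, while 85.5% of other protein-coding genes held none. ITGA1, the main collagen IV receptor chain, and ITGA11, the fibrillar collagen receptor chain of fibroblasts, had no listed region in the gene or within 100 kb of the 5′ end. ITGA2, which binds collagen I, held 3 gained intronic regions on chromosome 5, namely 53004020 to 53004449, 53027588 to 53029101 and 53030843 to 53032978, the nearest of them 14680 bp inside the gene. ITGA10 held none, and the lost region in its window (chromosome 1, 145962106 to 145964997) lay over the 5′ end of ANKRD34A.

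In their gene bodies, the laminin receptors ITGA3 and ITGA6 held regions of opposite direction. ITGA3 (chromosome 17, 50055968 to 50090481, plus strand) had a gained region of 2872 bp over its 5′ end, 50054904 to 50057775, and another of 2000 bp within the gene, 50059776 to 50061775. A lost region of 281 bp in its window (49968794 to 49969074) lay 86894 bp upstream and 206 bp from the 5′ end of DLX4. ITGA6 (chromosome 2) had 1 lost region of 1568 bp, 172479710 to 172481277, which overlapped a canonical exon 52356 bp inside the gene. ITGA7, the laminin receptor of muscle, had no listed region.

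The fibronectin receptor ITGA5 (chromosome 12, 54395261 to 54419266, minus strand) showed both directions over a short distance. A lost region of 2842 bp, 54419780 to 54422621, lay upstream of the 5′ end with its near edge at 514 bp, and a gained region of 2431 bp, 54410765 to 54413195, lay 6071 bp inside the gene. The centres of both also lay in the non-coding gene GPR84-AS1, so that the regions cannot be given to ITGA5 alone. ITGA8 and ITGAV, the other chains of receptors for the RGD peptide, and ITGA4 and ITGA9, which form the alpha4 family, had no listed region in the gene or its 100 kb window.

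Of the beta subunits, 3 of 6 held lost regions in the gene body, where 6.05% of other protein-coding genes did. Of these 3, ITGB1 and ITGB5 are longer than 100 kb, a class in which 15.8% of other genes held one. ITGB1 encodes the chain shared by the collagen, laminin and fibronectin receptors. Its lost region of 2265 bp (chromosome 10, 33004503 to 33006767) lay over the 5′ end of the gene model, which is 47.6 kb upstream of the canonical start, and its gained region of 2485 bp (32980251 to 32982735) lay 22021 bp upstream of the canonical start. Both regions had their centre in the divergent non-coding gene ITGB1-DT as well, and no listed region lay within 2500 bp of the canonical start. In ITGB4, the partner of ITGA6 in hemidesmosomes, a lost region of 935 bp (chromosome 17, 75720866 to 75721800) covered the 5′ end, and abutting lost regions of 2000 and 2045 bp lay 25170 bp and further upstream, in SAP30BP. ITGB5, a partner of ITGAV, had 3 lost regions near its 3′ end (chromosome 3, 124771118 to 124781267 in all, 120151 to 128481 bp from the 5′ end) and a gained one of 1714 bp (124878036 to 124879749) nearer the start, 7616 bp inside the canonical transcript. All 3 lost regions lay closer to the 5′ end of UMPS, at 40685 to 49450 bp. ITGB3, ITGB6 and ITGB8, all further partners of ITGAV, had no listed region.

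**Figure D3:**
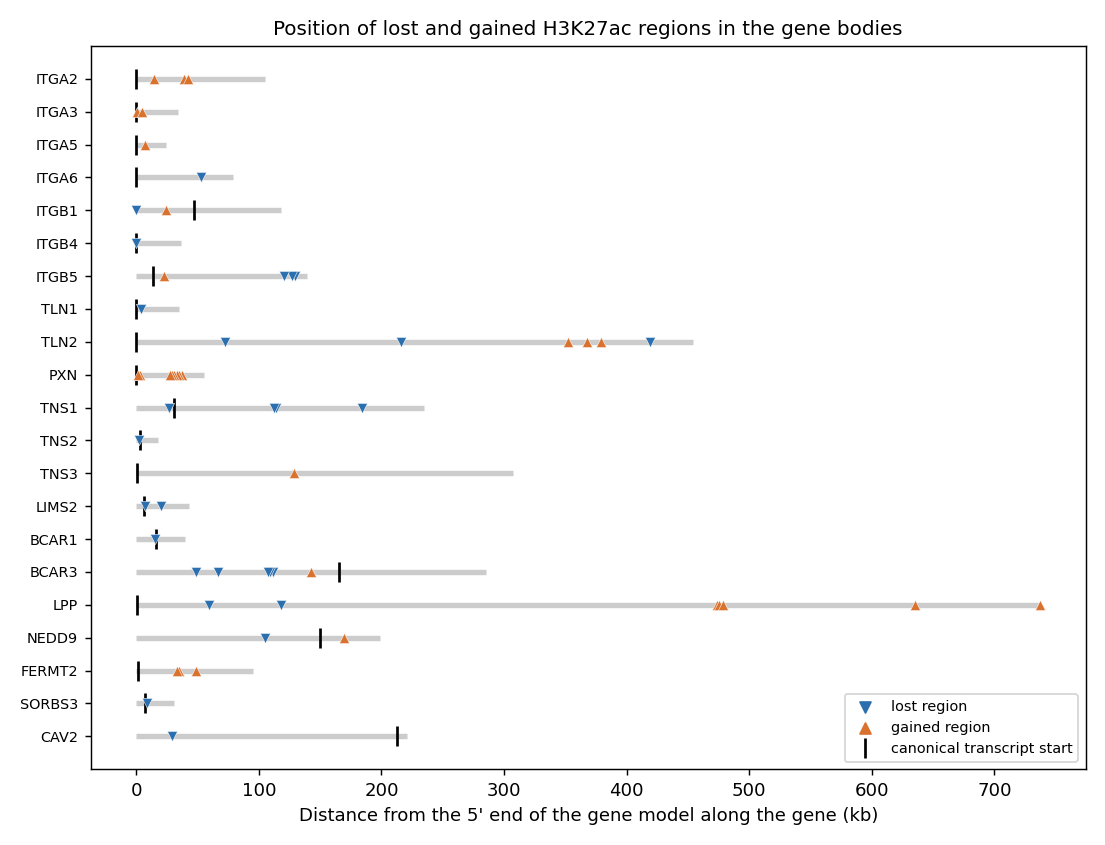
Lost (blue, pointing down) and gained (orange, pointing up) regions along the bodies of the 21 genes that held any, drawn to scale in kb from the 5′ end of the gene model, with a black tick at the start of the canonical transcript. In several genes, among them BCAR3, CAV2, ITGB1 and NEDD9, every lost region lies before the tick. In LPP the 2 lost regions lie toward the start and the 5 gained ones in the distal part, and in PXN all 8 regions are gained.

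The activators of integrins were next. TLN1, the widely expressed talin, had 1 lost intronic region of 2692 bp (chromosome 9, 35726523 to 35729214), 2981 bp from the 5′ end. It held 4 TEAD matches, the highest number in a lost region of these genes together with a region of BCAR3, and it also held 1 AP-1 and 1 SRF match. TLN2, the longer talin gene, was mixed along its 454 kb. Its 3 lost regions lay 71976, 214785 and 418146 bp from the 5′ end, and its 3 gained regions lay together at 351519 to 378004 bp (chromosome 15, 62742045 to 62771414). The 5′ end of TPM1 was closer than that of TLN2 to the 3 gained regions and to the lost one at 418146 bp. FERMT2, the kindlin of fibroblasts, had only gained regions in its gene body, 3 of them between 52903686 and 52920129 on chromosome 14, of 223, 453 and 1317 bp, all of which also lay in an unnamed gene model that overlaps FERMT2. FERMT1, the kindlin of epithelia, had none.

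For TLN1 and BCAR3, windows over neighbouring TEAD matches are shown, chosen after the counts had been seen. The TLN1 stretch (chr9:35728072-35728220) held 3 matches and the BCAR3 stretch (chr1:93735871-93736010) held 2, all in lost regions.
TLN1: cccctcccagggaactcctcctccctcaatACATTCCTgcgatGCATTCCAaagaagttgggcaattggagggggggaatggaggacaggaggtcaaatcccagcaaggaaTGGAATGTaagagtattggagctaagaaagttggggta
BCAR3: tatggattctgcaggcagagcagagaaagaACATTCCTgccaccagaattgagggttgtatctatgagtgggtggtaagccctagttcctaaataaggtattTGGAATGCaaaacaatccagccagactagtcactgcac

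The signalling scaffolds included the genes with the most listed regions in each direction, PXN and BCAR3, an order that did not hold once abutting regions were joined. PXN encodes paxillin, the scaffold on which focal adhesion kinase and the Cas proteins meet. It held 8 gained regions and no lost one, between 120227996 and 120265775 on chromosome 12. Of these, 6 abutted in a block of 11.2 kb (120227996 to 120239238) and 2 in a block of 4.24 kb that reached the 5′ end (120261533 to 120265775). The 8 regions of PXN thus form 2 blocks of abutting bins, rather than 8 separate sites, whereas LPP had 4 gained blocks and TLN2, ITGA2 and FERMT2 had 3 each. In the larger PXN block, the regions up to 120233590 lay closer to the 5′ end of RPLP0. BCAR3, which binds the Cas scaffold BCAR1, held 5 lost regions over 64.8 kb (chromosome 1, 93734701 to 93799540), 3 of which abutted in 6.37 kb, so that they formed 3 blocks, as many as the lost regions of TNS1, TLN2 and ITGB5 did. All 5 lay upstream of the canonical start, by 52864 to 115398 bp, since that start is 165 kb inside the gene model. They held 9 TEAD matches, spread over 3 of the 5 regions. The 1 gained region of BCAR3 was 239 bp wide (93704049 to 93704287).

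BCAR1 itself, also known as p130Cas, had a lost region of 2000 bp (chromosome 16, 75251808 to 75253807) with its near edge 184 bp upstream of the canonical start, and a further lost region of 1711 bp upstream of the gene model. NEDD9, the related Cas protein, had 1 lost region of 2147 bp (chromosome 6, 11276535 to 11278681) and 1 gained region of 1985 bp (11211840 to 11213824). Its gained region lay 18844 bp inside the canonical transcript and its lost one 43867 bp upstream of it. PTK2, the gene of focal adhesion kinase, had no listed region in its 344 kb body or within 100 kb of its 5′ end.

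In the ILK-PINCH-parvin complex, only LIMS2 of 5 genes held regions in its gene body, while 85.5% of other protein-coding genes held none. The gene encodes PINCH2, and it held lost regions of 1894 bp (chromosome 2, 127660672 to 127662565) and 3006 bp (127673000 to 127676005), the latter over the canonical start. A gained region of 2300 bp (127636166 to 127638465) overlapped the 3′ end of LIMS2, with its centre in the neighbour MYO7B. The kinase-like core ILK, the parvins PARVA and PARVB, and LIMS1, which encodes PINCH1, had no region in the gene body or at the 5′ end.

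The tensins, which bind the beta tail and actin, all held a region in the gene body, where 85.5% of other protein-coding genes held none. TNS1 and TNS3 are longer than 100 kb, a class in which 15.8% of other genes held a lost and 20.3% a gained region. TNS1 held 4 lost regions (chromosome 2, between 217849237 and 218008146), of which 2 abutted in a block of 3.59 kb and 1 lay 3931 bp upstream of the canonical start. TNS2 had 1 lost region of 2000 bp over its canonical start (chromosome 12, 53048114 to 53050113), where TNS2-AS1 overlaps it. TNS3 held 1 gained region of 1833 bp (chromosome 7, 47452519 to 47454351), 128207 bp inside the gene, while 3 lost regions lay upstream of it, at 17388, 21142 and 68409 bp from the 5′ end, in sequence with no annotated gene. The nearest of these 3, of 3021 bp, held 7 AP-1 matches.

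Actin-linked adaptors were split. LPP, a LIM protein related to zyxin and the longest of the genes (737 kb), held 2 lost regions 58054 and 116824 bp from its 5′ end (chromosome 3, 188211338 to 188213679 and 188270108 to 188272107) and 5 gained regions spread over its distal part (188626329 to 188891527), the nearest of them 473045 bp from the 5′ end. All 5 gained regions lay closer to the 5′ end of TPRG1. SORBS3, which encodes the vinculin-binding protein vinexin, had 1 lost region of 3161 bp, 297 bp inside the canonical transcript (chromosome 8, 22552224 to 22555384). VASP, an actin polymerisation factor, had none in the gene. Of the caveolins, which shape membrane pits that buffer tension, CAV1 had no listed region, and CAV2 had 1 lost region of 2511 bp (chromosome 7, 116315271 to 116317781) that lay 181957 bp upstream of its canonical start.

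The surroundings of the genes were examined with a window of 100 kb on each side of the 5′ end. Lost regions lay in the windows of 21 genes (52.5%, with 20.4% of other protein-coding genes) and gained regions in those of 12 (30%, with 29.5% of the others). By group, lost regions lay in the windows of 15 of 22 adaptors (68.2%) and 6 of 18 integrins (33.3%), and gained regions in those of 7 (31.8%) and 5 (27.8%). Such a window often holds other genes. Counting only regions for which no other protein-coding 5′ end is closer left 18 genes with loss (7.58% of others) and 7 with gain (10.2% of others). Of these, 14 adaptors and 4 integrins had loss, and 2 adaptors and 5 integrins had gain.

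Lost and gained regions outside the genes differed in their nearest gene, a split that was not computed for other protein-coding genes. Of those other genes, 6.39% had a gained and 2.00% a lost region within 2500 bp of the 5′ end. Of 17 lost regions in the windows but outside the gene body, 10 had the 5′ end of the adhesion gene as the nearest one. None of the 10 gained regions outside the gene body did. The latter lay, for example, over the 5′ ends of EIF4B (in the window of TNS2), SFT2D3 (LIMS2) and ERCC1 (VASP), and 77 bp from that of TES (CAV2). The former included the 3 regions upstream of TNS3, 2 abutting regions 88750 bp and further upstream of PARVA (chromosome 11, 12284984 to 12288813), in MICAL2, and regions upstream of NEDD9 (44696 bp), FERMT2 (57967 bp) and BCAR1 (19645 bp). In FERMT2, TNS3, ITGA5 and ITGA3, the regions inside the gene were gained and those upstream of it in the window lost, although for ITGA3 the lost region lay closer to the 5′ end of DLX4. LIMS2 and CAV2 had the reverse, with lost regions inside the gene and gained ones upstream. The latter lay 19294 bp from the 5′ end of LIMS2, and 69161 and 75550 bp from that of CAV2, closer to other genes. A total of 15 genes, 10 integrins and 5 adaptors, had no listed region in the body or the window. For the window alone, 55.6% of integrins and 22.7% of adaptors had none, with 56.7% of other protein-coding genes. The integrins were thus near the share of the other genes.

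**Figure D4:**
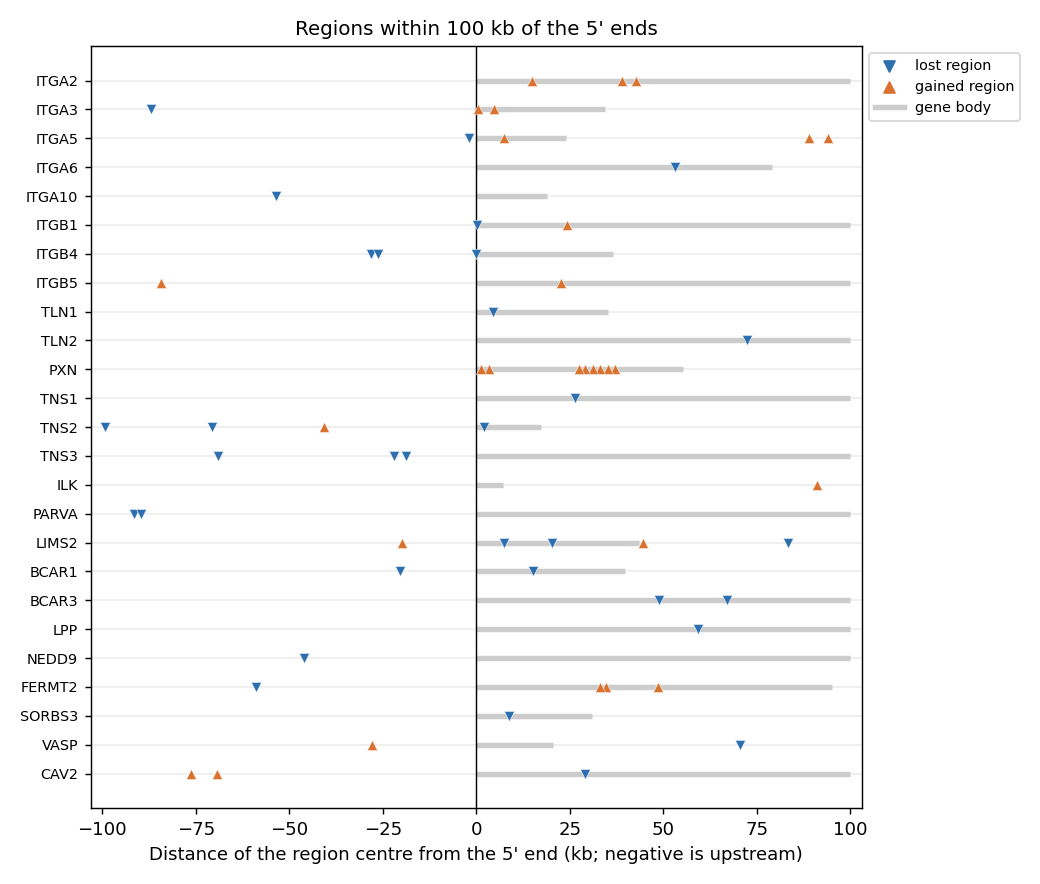
Centres of lost (blue, pointing down) and gained (orange, pointing up) regions within 100 kb of the 5′ end of the gene model for the 25 genes with any, in kb along the direction of transcription, with the gene body in grey. Upstream of the genes lost regions outnumber gained ones, as at TNS3, PARVA and ITGB4, and the gained regions upstream lie nearer to the 5′ ends of other genes. Neither pattern was computed for other protein-coding genes.

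The 59 regions in the gene bodies or at the 5′ ends were then compared with the full lists for width and sequence features, which did not enter their choice. Position in genes did enter it, and the full lists also hold regions outside genes. Lost regions had a median width of 2000 bp (quartiles 1645 and 2306 bp, n = 29), where all 3507 lost regions had 1905 bp. Gained regions had 1992 bp (quartiles 1525 and 2106 bp, n = 30), where all 3623 gained regions had 1697 bp. The median GC content was 49.6% in lost and 46.0% in gained regions of the adhesion genes, with 46.8% and 46.1% over the full lists. In bodies of other protein-coding genes, it was 48.6% and 47.7%. The median ratio of observed to expected CpG in lost and gained regions of the adhesion genes was 0.214 and 0.159. It was 0.202 and 0.247 over the full lists, and 0.221 and 0.277 in bodies of other protein-coding genes. Most regions held no exon of the gene, namely 16 of 29 lost and 20 of 30 gained ones. Runs of neighbours of the same direction, with centres within 50 kb, took in 22 of 30 gained and 15 of 29 lost regions. PXN supplied 8 of these 22 gained regions as abutting bins, so that the difference partly reflects how that gene was binned. The exon and run shares are not given for the full lists, so neither can be read as particular to the adhesion genes. Members of a run share their surroundings and are not independent.

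A TEAD word was matched in 14 lost (48.3%) and 12 gained (40%) regions of the adhesion genes, where the full lists had 42.9% and 27.5%. Lost regions of adaptors held 23 of the 27 TEAD matches, or 5.00 per 10 kb, and those of integrins 4, or 3.36 per 10 kb, with 3.24 per 10 kb over all lost regions. BCAR3 and TLN1 carried 13 of these 23 matches, and without those genes, a comparison made after the counts had been seen, the lost regions of adaptors held 10 matches, or 3.08 per 10 kb. Gained regions of the adhesion genes held 3.24 TEAD matches per 10 kb, with 2.07 over all gained regions. Of the 12 gained regions with a match, 4 lay in PXN. The AP-1 word was present in 20 lost (69.0%) and 18 gained regions (60%), where the full lists had 56.5% and 53.6%. Per 10 kb, AP-1 matches numbered 5.01 in lost and 5.15 in gained regions, against 5.12 and 5.76 over the full lists.

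The CArG box, bound by SRF, was matched in 6 lost regions (20.7%), in TLN1, ITGB1, TNS1, LIMS2 and LPP, and in 1 gained region (3.33%), in LPP. The full lists had 14.7% and 7.76%. The composite ATF4-C/EBP word TGATGCAA showed the opposite, with 1 lost region (3.45%), in BCAR3, and 5 gained regions (16.7%), in ITGA2, TLN2, LPP and NEDD9, where the full lists had 4.36% and 10.1%. A match is a run of letters in a window and not a bound site, and with about 30 regions in each direction a few more or fewer matches would shift these shares.

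**Figure D5:**
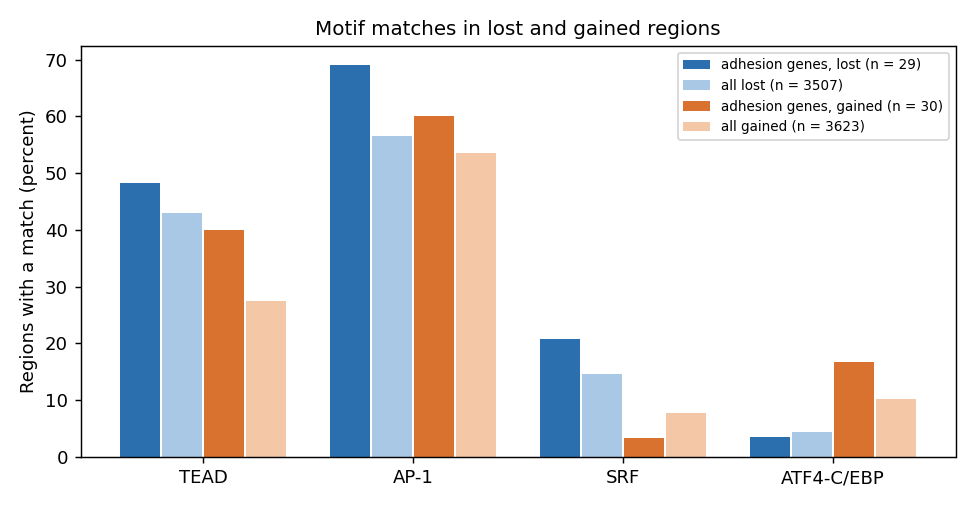
Share of regions with at least 1 match to each motif (percent), for the 29 lost and 30 gained regions of the adhesion genes (dark bars) and for the 3507 lost and 3623 gained regions of the full lists (pale bars). The dark and pale bars differ most for the AP-1 word among lost regions (69.0% and 56.5%) and for the TEAD words among gained regions (40% and 27.5%).

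Other genes of the same system were read in the same way. None of 8 further integrins, those of leukocytes and platelets, held a lost region in the body, where 6.05% of all other protein-coding genes did. ITGAE alone held a gained one (12.5%, with 9.43% of all other protein-coding genes), so that both counts are near those shares. Of 47 other adhesion proteins, 11 held a lost region (23.4%) and 7 a gained one (14.9%) in the body, values that lie between those of the adaptors above and those of all other protein-coding genes. At the 5′ end, 5 had a lost region, namely ZYX, GIT2, PDLIM7, ENAH and KANK2, which is 10.6% where 2.00% of all other protein-coding genes had one. Gained regions were found there in 3, namely LPXN, ASAP1 and TES, and this share (6.38%) was that of other protein-coding genes (6.39%). ZYX encodes zyxin, a tension-dependent LIM protein, and PDLIM7, with 2 lost regions, a LIM protein of actin fibres. LPXN, with 2 gained regions, encodes leupaxin of the paxillin family, as PXN does paxillin. ASAP1 held 2 lost and 2 gained regions in its body, and ASAP2 held 3 gained ones.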

How the data were processed

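H3K27ac ChIP-seq was done on LX-2 cells in 4 replicates per arm. According to the methods, the authors aligned reads to hg38 with Chromap, called peaks per library against input with MACS2 (version 2.1.1.20160309 in the submitters' processing notes), cut peaks into bins and tested the 8 libraries together with MAnorm2. The deposited lists hold chromosome, start and end, with an adjusted p threshold of 0.15 in their names, whereas the methods give a stricter one. Binning lists wide domains as several abutting regions. The other 8 libraries (input DNA and column purified chromatin) were not analysed here.

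All 7130 regions lay within hg38 chromosomes. Starts were converted to count from 1. Genes came from GENCODE release 44 (the study used an earlier one), the 5′ end being that of the gene model. Distances are to the nearest base of a region. No test was run between groups. Other windows, starts, overlap rules and joined regions were tried as alternatives. Counting was tested on simulated data. Genes were described region by region where a region was in the body or within 2500 bp of the 5′ end, with spans for those above 6 regions. Sequences follow the regions at 5′ ends, with TLN1 and BCAR3 added. The gene list, roles and motifs were chosen with earlier results of these data known. pandas 2.3.3 was used.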

Additional observations from a re-analysis of the deposited data

How the results depend on the processing

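No paired analysis was possible because neither deposited list carries replicate values. Leave-one-out fits and a stricter threshold could not be run without them, and read depth is unknown. Of 101 values under an alternative, 83 stayed within 1.5 times the main value and 18 did not. All counts for gene bodies stayed within it, with any overlap, with abutting or near regions joined, and without LPP or the caveolins. At the 5′ end, the starts of any transcript gave 10 genes with loss (6 adaptors) and 8 with gain (3 integrins, 5 adaptors). For adaptors with loss there, a window of 1000 bp gave 0, one of 5000 bp gave 2 and canonical starts, an alternative chosen after seeing the data, gave 4. In place of 100 kb, 50 kb gave 13 genes with loss (3 integrins), and 25 kb gave 9 with loss (3 integrins, 6 adaptors) and 7 with gain (2 adaptors). With only regions nearest to the gene, 7 genes had gain (2 adaptors). Without BCAR3 and TLN1, also chosen after seeing the data, lost regions of adaptors held 3.08 TEAD matches per 10 kb in place of 5.00.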
